A study of Mus musculus with 71 samples.

Results

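The first 2 hrs of rosiglitazone (RSG) in differentiated C3H/10T1/2 adipocytes are described here, from the 12 arrays of this cell type at 1 hr and 2 hrs among the 71 arrays of the series, chosen by their titles. C3H/10T1/2 is a single fibroblast-like mouse embryo line that can be turned into fat cells in culture. The arrays form 4 groups of 3: 1 µM RSG for 1 hr, DMSO vehicle for 1 hr, 1 µM RSG for 2 hrs and DMSO vehicle for 2 hrs. All groups, the DMSO controls included, came from cells that had been differentiated for 6 days with 10 µM RSG and 1 µM insulin and then kept for 24 hrs without either in DMEM/F12 medium with serum albumin. Each array measured RNA pooled from 2 wells, and the 3 replicates of a group came from separate batches of cells.

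RSG is a thiazolidinedione ligand of PPARγ, a nuclear receptor needed to make fat cells and abundant in mature ones. As a heterodimer with RXR, PPARγ binds direct repeats of a short hexamer, and many of its known target genes take up, store or burn fatty acids. Agonist binding exchanges corepressors for coactivators at the promoters and enhancers of its target genes.

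Signals are MAS 5.0 intensities on a linear scale, and a probe set counts as present at or above the level that the study's methods set from negative control probe sets. Median signals of the 12 arrays lay between 38.2 and 45.6, 62.1% to 67.4% of probe sets were present, and any pair of arrays correlated at 0.953 to 0.979. Of adipocyte markers all 8 on the array (Fabp4, Adipoq, Lpl, Cidec, Cd36, Lipe, Pparg and Slc2a4) were present, with summed signals of 26230 to 26790 with RSG and 25880 to 26500 with DMSO at 1 hr, and 22980 to 27070 with RSG and 23660 to 26280 with DMSO at 2 hrs. All 9 markers of preadipocytes and fibroblasts were present too, with sums of 9529 to 13730 with RSG and 9932 to 13860 with DMSO at 1 hr, and 9669 to 13790 with RSG and 10530 to 14310 with DMSO at 2 hrs. Of 5 brown fat markers on the array 3 were present (Dio2, Cox8b and Elovl3, but not Ucp1 or Zic1), with sums of 2220 to 2514 with RSG and 2165 to 2262 with DMSO at 1 hr, and 1972 to 2757 with RSG and 1931 to 2300 with DMSO at 2 hrs. Of 7 macrophage markers 5 were present (Adgre1, Cd68, Csf1r, Cd14 and Lyz2, but not Ptprc or Itgam), with sums of 565.4 to 642.9 with RSG and 563.5 to 687.2 with DMSO at 1 hr, and 513.5 to 653.5 with RSG and 550.6 to 596.4 with DMSO at 2 hrs. Present too were 4 of 6 osteoblast and chondrocyte markers (Sp7, Alpl, Acan and Sox9, but not Ibsp or Col2a1), 2 of 8 of skeletal muscle (Ckm and Des, but not Myod1 or Myog) and 1 of 5 of endothelium (Kdr, but not Pecam1 or Cdh5). The part of other cell types in the results was not tested. In RNA from whole wells, a change in the number of cells of a type and a change in RNA per cell cannot be told apart.

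Few probe sets were called at 1 hr, and more at 2 hrs, while the difference between the 2 effects was called for 0. Of 15439 probe sets tested with limma, with the replicate number as a block and an adjusted p under 0.05 as the call, RSG raised 8 (0.0518%) and lowered 4 (0.0259%) at 1 hr, which are 6 and 3 genes. At 2 hrs it raised 68 (0.44%) and lowered 34 (0.22%), and those with 1 gene name are 52 and 27 genes. All 12 probe sets called at 1 hr were called again at 2 hrs. RSG arrays lay wholly to one side of DMSO arrays for 11 of the 12 probe sets called at 1 hr and for 90 of the 102 called at 2 hrs, against 6.79% and 9.98% of all tested probe sets. Without the replicate block limma called 1 probe set at 1 hr, of Pim3, and 34 at 2 hrs, and without the intensity trend 0 at 1 hr and 52 at 2 hrs. At an unadjusted p under 0.05 there were 1145 (7.42%) at 1 hr and 1282 (8.3%) at 2 hrs. With 1 array left out the counts ran from 8 to 15 at 1 hr and from 45 to 111 at 2 hrs, the lowest without RSG replicate 1 of 2 hrs.

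**Figure D1:**
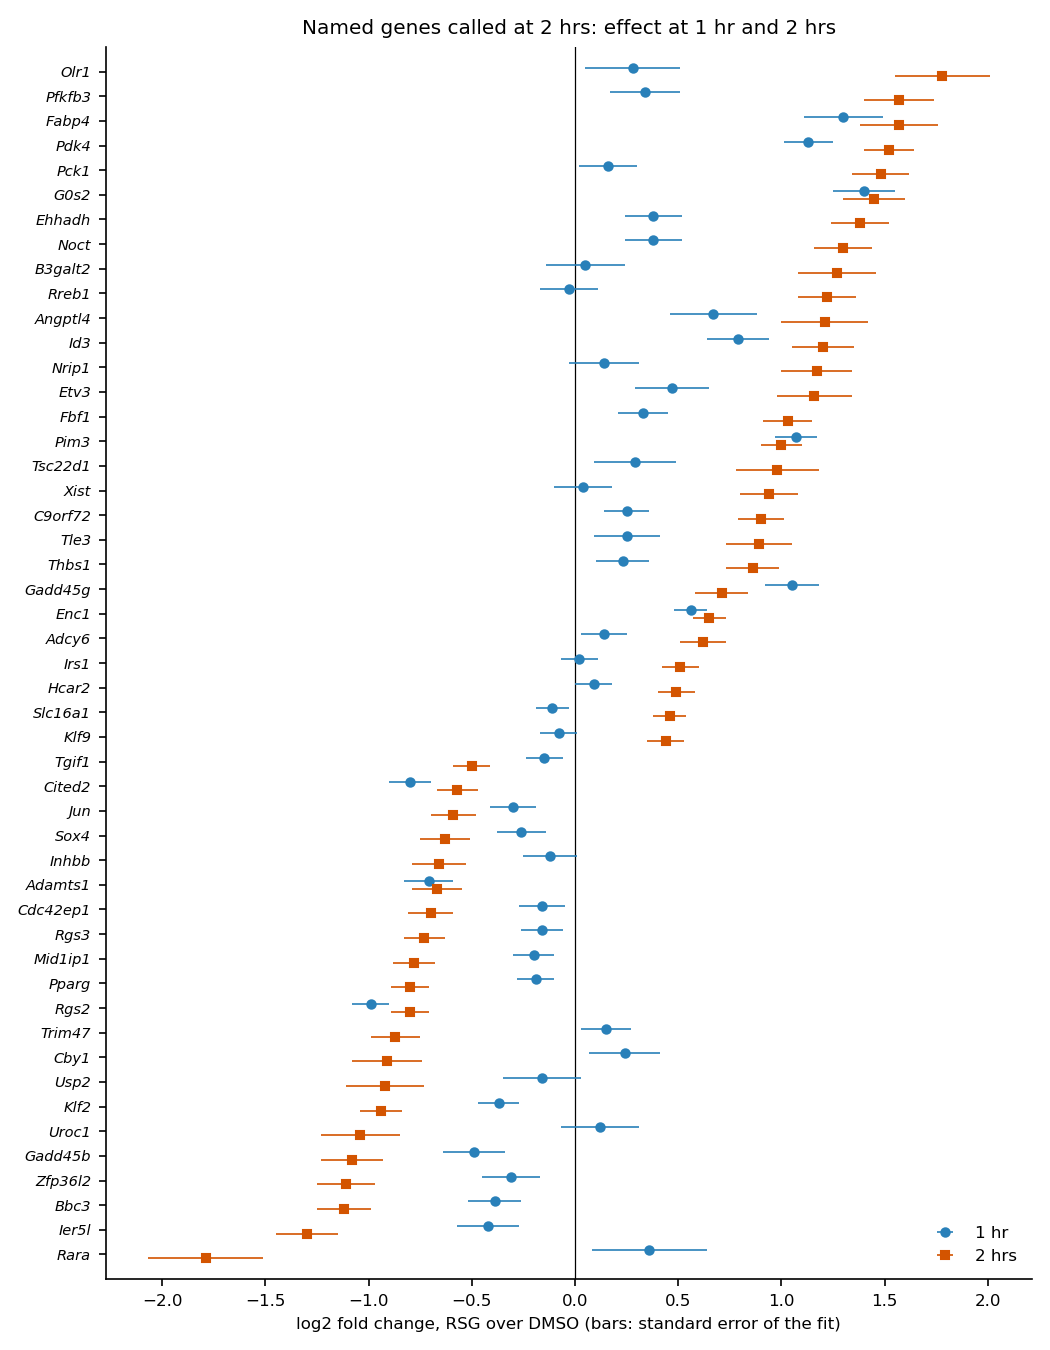
Fitted log2 fold change of RSG over DMSO at 1 hr (circles) and at 2 hrs (squares) for the 49 named genes called at 2 hrs, 28 higher and 21 lower, with bars for the standard error (3 arrays a group). Pdk4, G0s2, Fabp4, Pim3, Gadd45g, Enc1, Rgs2, Cited2 and Adamts1 were called at both times, and the other genes lay nearer to 0 at 1 hr.

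Among genes of fat and fuel handling, G0s2, Pdk4 and Fabp4 were higher by 1 hr. G0s2 encodes the protein inhibitor of adipose triglyceride lipase. Its signal was 2035.5, 1330.4 and 1340.4 with RSG, against 747, 429 and 619 with DMSO at 1 hr, and 2446, 2114 and 1806 with RSG, against 1248, 613 and 602 with DMSO at 2 hrs. The groups did not overlap at either time, and replicate 1 was the brightest in each of them. The log2 fold change was 1.40 ± 0.15 (SE, adjusted p = 0.000975) at 1 hr and 1.45 ± 0.15 (SE, adjusted p = 0.00037) at 2 hrs. Pdk4, the kinase that switches off pyruvate dehydrogenase and so spares glucose, had 857, 1141 and 1165 with RSG, against 479.5, 459 and 491 with DMSO at 1 hr, and 1155, 1236.5 and 1861 with RSG, against 404, 496 and 558.5 with DMSO at 2 hrs. Every RSG array was above all DMSO arrays, with a log2 fold change of 1.13 ± 0.12 (SE, adjusted p = 0.000975) at 1 hr and 1.52 ± 0.12 (SE, adjusted p = 0.000106) at 2 hrs.

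Fabp4 encodes the abundant fatty acid binding protein of adipocytes, and its 4 probe sets disagreed. The called one with the higher mean signal read 319, 745 and 905 with RSG, against 148, 289 and 337 with DMSO at 1 hr, and 467.5, 1077 and 1114 with RSG, against 252, 303 and 283 with DMSO at 2 hrs. RSG replicate 1 overlapped the DMSO arrays at 1 hr, and the groups were apart at 2 hrs. Its log2 fold change was 1.30 ± 0.19 (SE, adjusted p = 0.0128) at 1 hr and 1.57 ± 0.19 (SE, adjusted p = 0.000769) at 2 hrs, and a second, dimmer probe set gave 1.57 and 1.87. The brightest Fabp4 probe set, with signals of 5832 to 6249 with RSG and 5932 to 6306 with DMSO at 1 hr, gave -0.02 at 1 hr and -0.03 at 2 hrs, and the last gave -0.25 and 0.12. The rise was measured by 2 of the 4 probe sets, and not by the brightest.

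Of signaling and growth genes, Pim3, Gadd45g and Enc1 were higher by 1 hr. Pim3, a serine/threonine kinase that promotes cell survival, had 2095, 2101 and 1829.7 with RSG, against 1113, 846 and 925 with DMSO at 1 hr, and 2702, 2862 and 2547 with RSG, against 1323, 1482 and 1263 with DMSO at 2 hrs. All RSG arrays were above all DMSO arrays, and both groups were brighter at 2 hrs than at 1 hr. This gave a log2 fold change of 1.07 ± 0.10 (SE, adjusted p = 0.000405) at 1 hr and 1.00 ± 0.10 (SE, adjusted p = 0.000346) at 2 hrs, and another Pim3 probe set gave 0.97 and 1.21. Gadd45g, a member of the growth arrest and DNA damage family, had 265.5, 208 and 168 with RSG, against 105, 109.8 and 91.0 with DMSO at 1 hr, and 323, 264 and 184 with RSG, against 168, 181 and 119 with DMSO at 2 hrs. Its log2 fold change was 1.05 ± 0.13 (SE, adjusted p = 0.00284) at 1 hr and 0.71 ± 0.13 (SE, adjusted p = 0.0171) at 2 hrs, with no overlap at either time. Enc1, an actin-binding kelch protein, had 1254.5, 1431 and 1311 with RSG, against 923, 959 and 839 with DMSO at 1 hr, and 1263, 1225 and 1295 with RSG, against 764, 812.5 and 838 with DMSO at 2 hrs. Its change was smaller, with a log2 fold change of 0.56 ± 0.08 (SE, adjusted p = 0.0164) at 1 hr and 0.65 ± 0.08 (SE, adjusted p = 0.00133) at 2 hrs.

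RSG lowered Rgs2, Cited2 and Adamts1 at both times. Rgs2 speeds the shutdown of G protein signals, mainly those of the Gq class. Its signal was 638, 774 and 995 with RSG, against 1248, 1779.5 and 1743.5 with DMSO at 1 hr, and 579, 926 and 979 with RSG, against 1048.5, 1498 and 1765 with DMSO at 2 hrs. Replicate 1 was the dimmest in every group, and RSG arrays lay below all DMSO arrays at both times. The log2 fold change was -0.99 ± 0.09 (SE, adjusted p = 0.000405) at 1 hr and -0.80 ± 0.09 (SE, adjusted p = 0.000684) at 2 hrs, and a second probe set gave -0.91 and -0.63. Cited2, a coregulator that binds CBP and p300 proteins, had 522, 670.4 and 758 with RSG, against 939, 1129 and 1328 with DMSO at 1 hr, and 506, 651 and 899 with RSG, against 924, 898 and 1169 with DMSO at 2 hrs. The groups were apart at 1 hr and overlapped narrowly at 2 hrs, with a log2 fold change of -0.80 ± 0.10 (SE, adjusted p = 0.00306) at 1 hr and -0.57 ± 0.10 (SE, adjusted p = 0.0154) at 2 hrs. Adamts1, a secreted protease that cuts matrix proteoglycans, had 370.4, 316 and 316 with RSG, against 545, 499 and 601 with DMSO at 1 hr, and 299, 213 and 198.5 with RSG, against 409, 370.3 and 334 with DMSO at 2 hrs. RSG arrays were below DMSO arrays at both times, and the log2 fold change was -0.71 ± 0.12 (SE, adjusted p = 0.0476) at 1 hr and -0.67 ± 0.12 (SE, adjusted p = 0.0171) at 2 hrs. At 1 hr the Adamts1 call was lost in 9 of 12 fits that each left out 1 array, the Enc1 and Fabp4 calls in 4 each, and those of the other 6 genes in none.

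**Figure D2:**
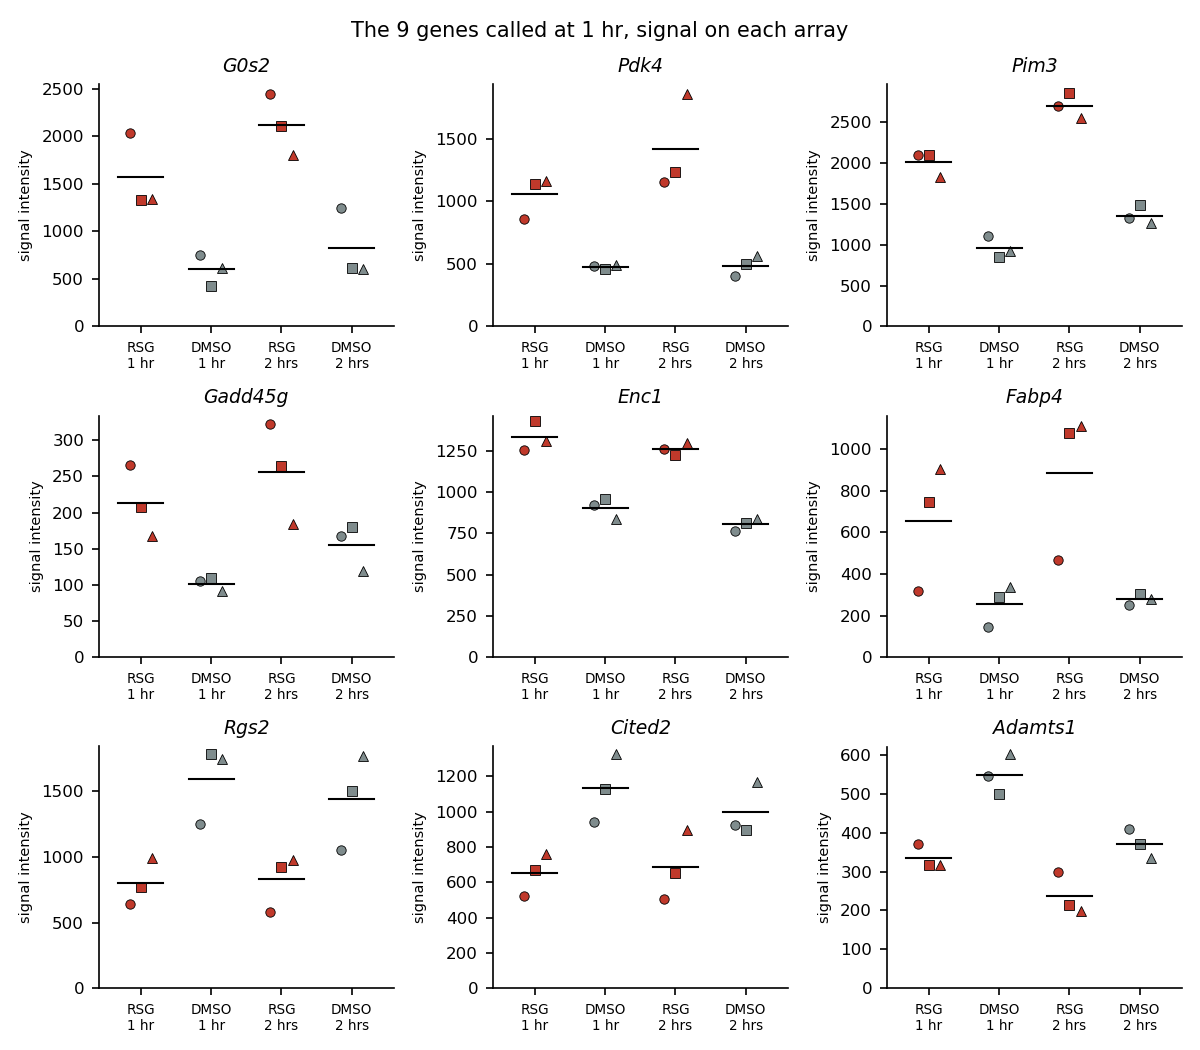
Signal intensity (linear scale from 0) on each array for the 9 genes called at 1 hr, with RSG in red, DMSO in grey, bars for group means and a circle, square and triangle for replicates 1, 2 and 3. G0s2, Pdk4, Pim3, Gadd45g, Enc1 and Fabp4 were higher and Rgs2, Cited2 and Adamts1 lower with RSG.

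Promoter sequence was available from RefSeq (GRCm38.p6) for 40 of the 52 genes higher at 2 hrs and 24 of the 27 genes lower. The 250 bases before each annotated start were searched on both strands for the hexamer AGGTCA and for a DR1 element, taken as 2 copies of AGGNCA with 1 base between them. The hexamer was in the window of 5 genes that rose (12.5%), of 4 that fell (16.7%) and of 15.8% of 27025 genes. The DR1 element was in none of either set and in 0.4% of all genes. At so low a rate, sets of 40 and 24 genes are too small for its absence to be read. Bases outside the 250 were not searched. Matches are descriptions of these letters and not binding sites. The stretches that hold the hexamer in Pim3, Olr1 and Pparg, called at 1 hr, at 2 hrs and as the receptor of RSG, are given with the hexamer in capitals, 5′ to 3′ on the strand of the gene. In Pim3 it is read on the opposite strand as TGACCT. Another annotated start of Pparg, number 3 (window chr6:115421816-115422065, plus strand), held 0 matches. Which Pparg start these cells used was not tested.
Pim3 (chr15:88862003-88862048, plus strand): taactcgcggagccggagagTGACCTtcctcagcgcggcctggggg
Olr1 (chr6:129507315-129507360, minus strand): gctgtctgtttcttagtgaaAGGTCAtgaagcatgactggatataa
Pparg, first start (chr6:115361096-115361141, plus strand): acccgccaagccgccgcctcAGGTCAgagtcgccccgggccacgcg
Pparg, second start (chr6:115362320-115362348, plus strand): tttatataagggacgcgaggAGGTCAaga

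Further genes of fat and fuel metabolism were called at 2 hrs and not at 1 hr. Pck1, the cytosolic enzyme that feeds glycerol synthesis in adipocytes, had 472, 445 and 557.5 with RSG, against 401, 394 and 527 with DMSO at 1 hr, and 397, 341 and 352 with RSG, against 104, 117.5 and 179.8 with DMSO at 2 hrs. The treatments overlapped at 1 hr and were far apart at 2 hrs, where both were dimmer than at 1 hr and DMSO more so. At 2 hrs the log2 fold change was 1.48 ± 0.14 (SE, adjusted p = 0.000346). Pfkfb3, which makes the sugar phosphate that activates glycolysis, had 212, 195.5 and 242 with RSG, against 164, 156 and 192 with DMSO at 1 hr, and 234.5, 147.5 and 151 with RSG, against 52.1, 62.7 and 60.5 with DMSO at 2 hrs, a log2 fold change of 1.57 ± 0.17 (SE, adjusted p = 0.00037) at the later time. Both treatments had lower means at 2 hrs than at 1 hr, DMSO more so, and RSG replicate 1 alone was brighter at 2 hrs. A dimmer Pfkfb3 probe set gave 0.64 at 2 hrs and was not called (adjusted p = 0.411). Ehhadh, a bifunctional enzyme of peroxisomal fatty acid oxidation, differed in this, with 137, 108 and 83.0 with RSG, against 92.0, 83.1 and 72.9 with DMSO at 1 hr, and 343, 314 and 227 with RSG, against 104, 139 and 94.7 with DMSO at 2 hrs. Here each RSG array at 2 hrs was brighter than every RSG array at 1 hr, DMSO means were 82.7 at 1 hr and 112.8 at 2 hrs, and the log2 fold change at 2 hrs was 1.38 ± 0.14 (SE, adjusted p = 0.00037).

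Olr1, a scavenger receptor for oxidized lipoprotein, had 169.8, 120.3 and 89.7 with RSG, against 133, 120.0 and 64.4 with DMSO at 1 hr, and 305, 276 and 163 with RSG, against 54.0, 81.0 and 77.5 with DMSO at 2 hrs. The log2 fold change at 2 hrs was 1.78 ± 0.23 (SE, adjusted p = 0.00171). Angptl4 encodes a secreted inhibitor of lipoprotein lipase. Its dim probe set was under the presence level on all DMSO arrays at 2 hrs, at 14.7, 14.8 and 10.7, against 32.8, 31.1 and 28.2 with RSG, so RSG was at least 1.54-fold higher (adjusted p = 0.0154 from limma). The bright Angptl4 probe set was called only over both hours, with a log2 fold change of 0.39 ± 0.07 (SE, adjusted p = 0.02). Smaller rises at 2 hrs were those of Hcar2, the niacin receptor that restrains lipolysis (0.49 ± 0.09 SE, adjusted p = 0.0159), and Slc16a1, a transporter of lactate and other monocarboxylates (0.46 ± 0.08 SE, adjusted p = 0.0159), both as log2 fold changes. By list, calls at 2 hrs were 4 higher and 0 lower of 28 probe sets for fatty acid uptake and binding (median log2 fold change 0.03). These 4 were of Angptl4, Fabp4 and Olr1. For fuel choice and glycolysis there were 3 and 0 of 40 (median -0.03). For lipolysis there were 2 and 0 of 15 (median 0.13), and for triglyceride assembly 1 and 0 of 28 (median 0.08). The median over all tested probe sets was -0.0168, and 0.44% of them were called higher and 0.22% lower. The lists here and below were chosen with earlier results of these data known, so nothing is read from their shares.

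Among transcription factors and coregulators, the receptor of RSG itself was lower at 2 hrs. Pparg had 517, 614 and 515 with RSG, against 575, 735 and 571 with DMSO at 1 hr, and 382, 405 and 294 with RSG, against 633, 662 and 578 with DMSO at 2 hrs. The groups overlapped at 1 hr, and at 2 hrs every RSG array was below every DMSO array while DMSO kept its level. RSG thus gave a log2 fold change of -0.80 ± 0.09 (SE, adjusted p = 0.000685) at 2 hrs. Rara, the retinoic acid receptor alpha, had 27.5, 18.7 and 34.4 with RSG, against 21.8, 16.1 and 23.9 with DMSO at 1 hr, and 12.4, 12.9 and 22.7 with RSG, against 76.3, 42.5 and 46.4 with DMSO at 2 hrs, a log2 fold change of -1.79 ± 0.28 (SE, adjusted p = 0.00741). With RSG at 2 hrs its mean was under the presence level, as were 2 of the 3 arrays, so the size of this fall is imprecise. Of the list of adipogenic factors and nuclear receptors, these were the calls among 41 probe sets at 2 hrs (median 0.03). Over all tested probe sets 0.44% were called higher and 0.22% lower. Cebpa gave 0.219 with an adjusted p of 0.45.

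Nrip1, a corepressor of nuclear receptors, had 165, 265 and 182 with RSG, against 131, 246 and 183 with DMSO at 1 hr, and 156, 213 and 202 with RSG, against 71.6, 75.7 and 109.6 with DMSO at 2 hrs. RSG means were 204.1 at 1 hr and 190.4 at 2 hrs, the DMSO arrays were lower at 2 hrs, and RSG gave a log2 fold change of 1.17 ± 0.17 (SE, adjusted p = 0.00396) at 2 hrs and 1.15 for a second probe set. Tle3, a corepressor of the Groucho family, had 176, 174 and 221 with RSG, against 131.5, 176 and 175 with DMSO at 1 hr, and 119, 108 and 122 with RSG, against 70.7, 46.1 and 75.8 with DMSO at 2 hrs. Both treatments were dimmer at 2 hrs, DMSO more so, and the log2 fold change was 0.89 ± 0.16 (SE, adjusted p = 0.0178). Noct, a rhythmically expressed phosphatase known as nocturnin, had 399, 633 and 652 with RSG, against 387, 404 and 482 with DMSO at 1 hr, and 374, 351 and 351 with RSG, against 142, 129.8 and 168 with DMSO at 2 hrs, a log2 fold change of 1.30 ± 0.14 (SE, adjusted p = 0.000534). Rreb1, a zinc finger factor downstream of Ras, had 168, 131 and 186.5 with RSG, against 160.0, 169 and 161.5 with DMSO at 1 hr, and 136, 132 and 117 with RSG, against 51.3, 55.9 and 58.5 with DMSO at 2 hrs. For these genes DMSO arrays at 2 hrs were the low group, and the log2 fold change of Rreb1 was 1.22 ± 0.14 (SE, adjusted p = 0.000619). Its other probe sets gave 0.33 and 0.00 at 2 hrs and were not called (adjusted p of 0.58 and 0.999).

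Id3, an inhibitor of basic helix-loop-helix factors, had 152, 128 and 109 with RSG, against 80.5, 68.3 and 74.3 with DMSO at 1 hr, and 132, 117 and 88.2 with RSG, against 46.6, 57.1 and 42.0 with DMSO at 2 hrs. It was apart at both times and passed the test at 2 hrs, with a log2 fold change of 1.2 ± 0.15 (SE, adjusted p = 0.001). Etv3, a repressor of the ETS family, followed with 1.16 ± 0.18 (SE, adjusted p = 0.0059), as a log2 fold change at 2 hrs, while its other probe sets gave 0.61 and 0.17 and were not called (adjusted p of 0.104 and 0.891). Klf2, a zinc finger factor that holds back fat cell formation in mouse preadipocytes, had 194, 220.2 and 181 with RSG, against 243, 276 and 250.3 with DMSO at 1 hr, and 91.6, 91.0 and 92.6 with RSG, against 181, 192 and 156 with DMSO at 2 hrs. Both treatments were dimmer at 2 hrs, RSG more so, and the log2 fold change was -0.94 ± 0.10 (SE, adjusted p = 0.000534). Klf9, of the same family, rose slightly, by a log2 fold change of 0.44 ± 0.09 (SE, adjusted p = 0.0342), in 1 of its probe sets. Of 25 probe sets of Kruppel-like factors 1 was higher and 1 lower at 2 hrs (median -0.19), beside 0.44% higher and 0.22% lower over all (median -0.0168).

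Immediate early factors were lower where they were called. Jun, a subunit of the AP-1 factor, had 737, 927 and 1181 with RSG, against 1162, 1025 and 1259.5 with DMSO at 1 hr, and 269, 227 and 274 with RSG, against 376.5, 355 and 425 with DMSO at 2 hrs. It dropped in both treatments between 1 hr and 2 hrs, and was lower with RSG at 2 hrs, with a log2 fold change of -0.59 ± 0.11 (SE, adjusted p = 0.0314). Zfp36l2, a protein that marks mRNA for decay, had 222.5, 266 and 244 with RSG, against 226, 339.5 and 361 with DMSO at 1 hr, and 373, 299 and 365 with RSG, against 755, 704 and 764 with DMSO at 2 hrs. Here DMSO arrays were brighter at 2 hrs than at 1 hr and RSG arrays were not as bright, with a log2 fold change of -1.11 ± 0.14 (SE, adjusted p = 0.00171). In this list 0 of 37 probe sets were higher and 4 lower at 2 hrs, of Jun, Zfp36l2 and Ier2 (median -0.16). Over all tested probe sets 0.44% were called higher and 0.22% lower (median -0.0168). Fos and Egr1 gave 0.141 and 0.607 with adjusted p of 0.902 and 0.109.

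**Figure D3:**
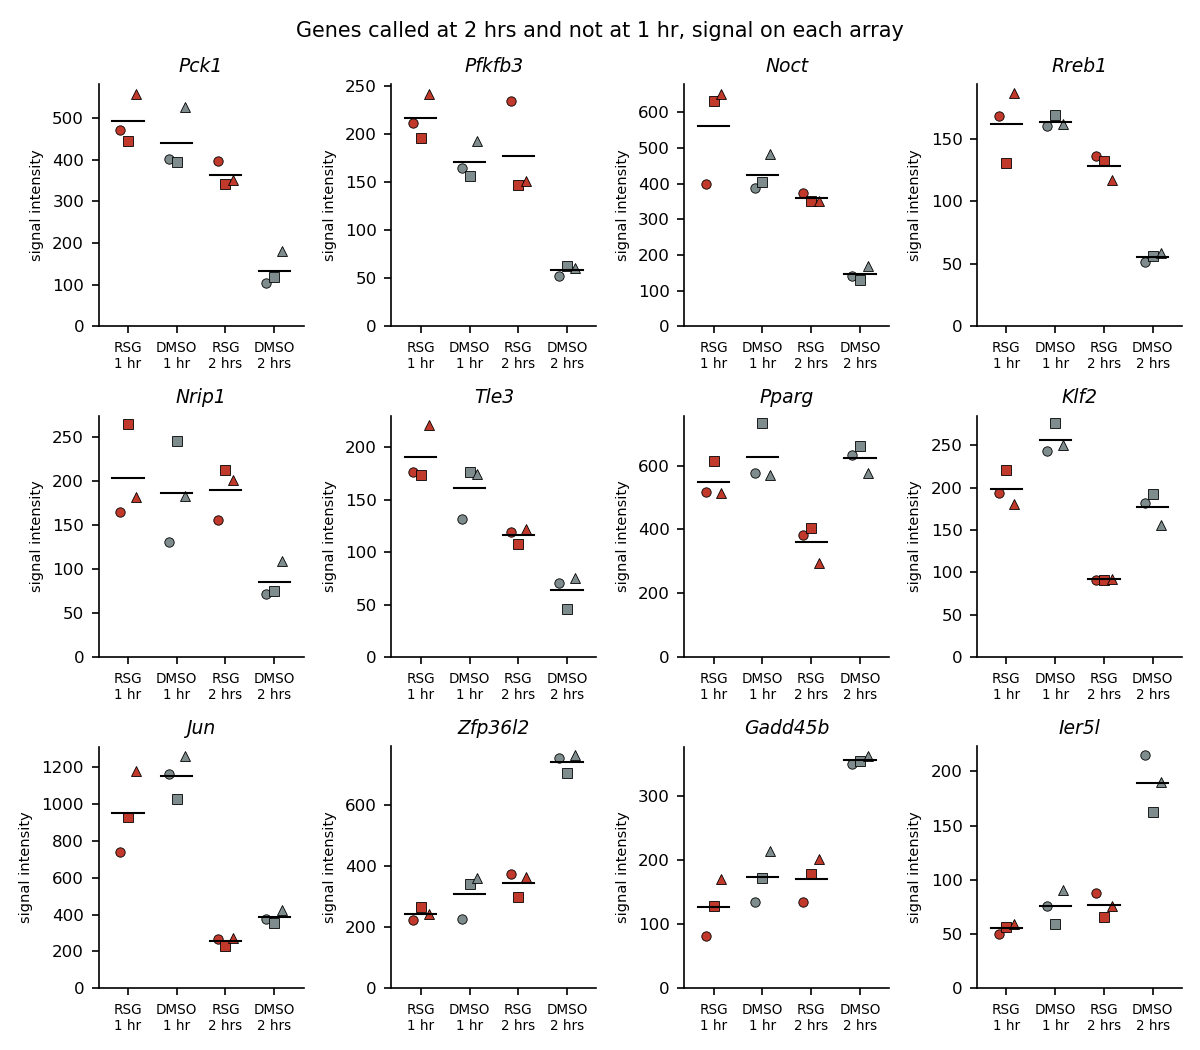
Signal intensity (linear scale from 0) on each array for 12 genes called at 2 hrs and not at 1 hr, with RSG in red, DMSO in grey, bars for group means and a circle, square and triangle for replicates 1, 2 and 3. For Pck1, Pfkfb3, Noct, Rreb1, Nrip1 and Tle3 the DMSO arrays at 2 hrs are the low group, and for Zfp36l2, Gadd45b and Ier5l they are the high group.

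Signaling genes and stress genes moved both ways. Rgs3, another regulator of G protein signals, had 266, 356 and 367 with RSG, against 355, 349 and 393 with DMSO at 1 hr, and 289.6, 305 and 341.5 with RSG, against 451, 542 and 561 with DMSO at 2 hrs, with a log2 fold change of -0.73 ± 0.10 (SE, adjusted p = 0.00188). With Rgs2 it made up the 4 lower calls of 31 probe sets for G protein and cAMP signaling at 2 hrs. Adcy6, an adenylyl cyclase, was the 1 higher call with a log2 fold change of 0.62 ± 0.11 (SE, adjusted p = 0.0161). Over all tested probe sets 0.44% were called higher and 0.22% lower. Gadd45b had 81.7, 128 and 171 with RSG, against 135, 172.5 and 214.5 with DMSO at 1 hr, and 134, 178 and 201 with RSG, against 349, 355 and 363 with DMSO at 2 hrs, a log2 fold change of -1.08 ± 0.15 (SE, adjusted p = 0.0021), opposite in sign to its relative Gadd45g. The other Gadd45b probe sets gave -1.12 and -0.11 at 2 hrs and were not called by limma (adjusted p of 0.0611 and 0.944). Bbc3, which encodes the cell death protein PUMA, had 111, 95.7 and 81.2 with RSG, against 127, 120.2 and 127 with DMSO at 1 hr, and 67.3, 61.9 and 72.0 with RSG, against 155, 155 and 129 with DMSO at 2 hrs. The groups were apart at both times and the log2 fold change passed the test at 2 hrs, at -1.12 ± 0.13 (SE, adjusted p = 0.000685). Ier5l, of an immediate early family, had 50.4, 56.9 and 59.5 with RSG, against 76.1, 59.4 and 90.7 with DMSO at 1 hr, and 87.6, 66.1 and 76.0 with RSG, against 215, 162.5 and 190.1 with DMSO at 2 hrs. Both treatments were brighter at 2 hrs, DMSO more so, and the log2 fold change was -1.30 ± 0.15 (SE, adjusted p = 0.000649).

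Irs1, a docking protein of the insulin receptor, had 512.5, 605 and 561 with RSG, against 496.5, 542 and 619 with DMSO at 1 hr, and 753, 799 and 758 with RSG, against 559, 529.6 and 532.5 with DMSO at 2 hrs. DMSO means were close at the 2 times, the treatments overlapped at 1 hr and RSG was higher at 2 hrs, with a log2 fold change of 0.51 ± 0.09 (SE, adjusted p = 0.0209). Its relative Irs2 was called over both hours, at 0.65 ± 0.13 (SE, adjusted p = 0.0397), a call lost in 9 of 12 fits that each left out 1 array. Inhbb, a subunit of activin B, was lower at 2 hrs, with a log2 fold change of -0.66 ± 0.13 (SE, adjusted p = 0.0326), and so was Tgif1, a corepressor in TGF-beta signaling, with -0.50 ± 0.09 (SE, adjusted p = 0.0209). The matrix protein Thbs1 was higher by a log2 fold change of 0.86 ± 0.13 (SE, adjusted p = 0.00416). Mid1ip1, an activator of acetyl-CoA carboxylase, had 560.5, 590.1 and 532 with RSG, against 613.5, 710.0 and 615 with DMSO at 1 hr, and 377, 388 and 369 with RSG, against 618, 587 and 756 with DMSO at 2 hrs, and was lower, with a log2 fold change of -0.78 ± 0.10 (SE, adjusted p = 0.00192).

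Other named genes called at 2 hrs had log2 fold changes of 1.27 for B3galt2 (a galactosyltransferase), 1.03 for Fbf1 (a cilium protein), 0.98 for Tsc22d1 (a leucine zipper factor), 0.94 for Xist (the RNA of X inactivation) and 0.90 for C9orf72. The lower ones had -1.04 for Uroc1 (an enzyme of histidine breakdown), -0.92 for Usp2 (a deubiquitinase), -0.91 for Cby1 (an antagonist of beta-catenin), -0.87 for Trim47 (a ubiquitin ligase), -0.70 for Cdc42ep1 (an effector of Cdc42) and -0.63 for Sox4. Several of these rest on 1 of several probe sets. Xist was called in 1 of 3, and its brightest gave 0.22 with an adjusted p of 0.762. For Tsc22d1 the brightest probe set gave 0.26 with an adjusted p of 0.204, and RSG replicate 1, at 1605, was far above the other RSG arrays, at 843 and 848. For Klf9, Sox4, Uroc1, B3galt2, Cited2, Inhbb, Tle3, Usp2 and Zfp36l2 no other probe set was called at 1 hr or 2 hrs. A second Cited2 probe set was called by limma over both hours, with -0.5 (adjusted p = 0.0176). In the 12 fits that each left out 1 array, the 2 hr call was lost in 11 for Usp2, in 8 for Klf9 and in 7 for Tsc22d1. It was lost in 6 each for Jun, Cby1, Inhbb, Tgif1 and the dim Angptl4 probe set. It was lost in 5 each for Irs1, Hcar2, Adcy6, Slc16a1, Tle3, Uroc1 and Adamts1, each time without an array of 2 hrs. The limma adjusted p of these 7 genes then rose as high as 0.161, for Uroc1. For the other named genes followed at 2 hrs the call was lost in 4 or fewer. The 2 hr calls of Sox4 and Enc1 were not followed in these fits. Over both hours the call was lost in 11 for Sox4 and in 0 for Enc1.

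Of cytokines, chemokines and acute phase genes (43 probe sets), heat shock proteins (26), adipokines (8) and sterol synthesis and export (29), limma called 0 at 1 hr or 2 hrs. At an unadjusted p under 0.05 they held 7, 9, 0 and 2 at 1 hr, and 8, 4, 2 and 1 at 2 hrs, against 7.42% and 8.3% of all tested probe sets. Calls at 2 hrs in the other function lists stand beside 0.44% higher and 0.22% lower over all. They were 3 higher and 1 lower of 32 probe sets for transcriptional coregulators (median 0.12) and 2 and 0 of 37 for kinase feedback (median -0.04). The circadian clock had 1 and 0 of 25 (median -0.10), and TGF-beta and BMP signaling 1 and 2 of 35 (median -0.01). Cell stress and growth arrest had 1 and 1 of 60 (median -0.08), and insulin signaling 1 and 0 of 39 (median -0.02). Hippo targets, cytoskeleton and matrix had 2 and 1 of 34 (median 0.03). Some of these counts are of probe sets of the same gene. The higher calls were all of Pim3 for kinase feedback, all of Thbs1 for Hippo targets and of Nrip1 and Tle3 for coregulators. The median of G protein and cAMP signaling was -0.05. Of cell type markers, the Fabp4 probe sets and Pparg made up the 2 higher and 1 lower calls of 15 adipocyte probe sets, and 0 of 14 were called for fibroblasts and preadipocytes, with 1 at an unadjusted p under 0.05. Adipoq, the main adipokine, gave 0.051 at 1 hr and -0.065 at 2 hrs, with adjusted p of 0.917 and 0.882.

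Averaged over both hours, 42 probe sets were higher (0.272%) and 25 lower (0.162%), and 11 of these 67 were called at neither time alone. They include Cdc25a, a phosphatase that drives the cell cycle (0.69 ± 0.12 SE, adjusted p = 0.0242), Txnip, an inhibitor of thioredoxin (0.35 ± 0.06 SE, adjusted p = 0.0284), Nfil3, a clock-linked repressor (-0.65 ± 0.11 SE, adjusted p = 0.0114), and Sertad1, a cell cycle cofactor (-0.44 ± 0.08 SE, adjusted p = 0.0314), all as log2 fold changes. With 1 array left out in turn the call was lost in 11 of 12 fits for Sertad1, 9 for Txnip and 8 for Cdc25a, and the other Cdc25a probe set gave 0.16 (adjusted p = 0.886). Nfil3 had 100.4, 95.2 and 134 with RSG, against 179, 177 and 203 with DMSO at 1 hr, and 87.2, 81.4 and 65.9 with RSG, against 120.1, 105.5 and 110.5 with DMSO at 2 hrs, apart at each time. The effect at 2 hrs minus that at 1 hr was called for 0 probe sets by limma (0%), with 1154 at an unadjusted p under 0.05 and 9 called in a fit of all 36 C3H/10T1/2 arrays, so a gene called at 2 hrs and not at 1 hr is not shown to differ between the times. Pck1 and Rreb1 came nearest among the named genes, with differences of 1.31 and 1.25 (adjusted p = 0.0856 each from limma), and Trim47 had -1.02 (adjusted p = 0.0856).

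Vehicle arrays also changed between the hours. DMSO at 2 hrs against DMSO at 1 hr gave 199 probe sets higher and 203 lower by limma. The DMSO change on the log2 scale was -1.75 for Pck1, -1.55 for Pfkfb3, -1.54 for Noct, -1.57 for Rreb1 and -1.57 for Jun. It was 1.29 for Zfp36l2, 1.34 for Ier5l and 1.06 for Gadd45b, and 0.02 for Pdk4 and 0.00 for Pparg. These values share the DMSO arrays with the RSG comparisons and are given beside them only.

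Without the replicate block, 42 of the 95 calls of named genes (a gene at 1 hr, at 2 hrs or over both hours) were kept, at 2 hrs among them Olr1, Pfkfb3, Pdk4, Pck1, G0s2, Ehhadh, Noct, Pim3, Id3, Rara, Klf2, Bbc3 and Pparg. Calls lost in that fit include G0s2 (adjusted p = 0.373), Pdk4 (adjusted p = 0.0966), Rgs2 (adjusted p = 0.724) and Cited2 (adjusted p = 0.82) at 1 hr, and Nrip1 (adjusted p = 0.104), Angptl4 (adjusted p = 0.132), Irs1 (adjusted p = 0.12) and Jun (adjusted p = 0.341) at 2 hrs, all from limma.

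Other wells of the same line were treated for up to 48 hrs, on 24 arrays that had no part in calling the early genes. These wells may come from the same batches of cells as the early arrays, so they are not taken as an independent repeat. Of the 68 rises, 32, 36, 23 and 23 were called higher again at 4, 7, 24 and 48 hrs, where 0.772%, 2.42%, 4.74% and 3.93% of all tested probe sets were called higher. Of the 34 falls, 16, 23, 13 and 14 were called lower again, against 0.42%, 2.25%, 6.35% and 4.35% of all. No early rise or fall was called the opposite way by limma at any of the 4 times. Without the replicate block 22, 22, 15 and 12 rises and 11, 15, 9 and 11 falls were called again at the 4 times. The shares of all probe sets above are from the fit with the block, so these counts have no share beside them. Median log2 fold changes of the rises were 0.57, 0.58, 0.35 and 0.34, and of the falls -0.58, -0.59, -0.35 and -0.43.

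Single genes took different courses. The log2 fold change of G0s2 was 1.25 at 4 hrs, 0.21 at 7 hrs, 0.00 at 24 hrs and 0.04 at 48 hrs. Pdk4 instead gave 1.2, 1.83, 2.01 and 2.21 at these times, and Ehhadh 1.19, 1.5, 1.43 and 1.25. Pck1 was highest at 4 hrs, at 2.61, then 2.41, 0.43 and 0.37. Olr1 gave 1.76, 1.92, 1.5 and 2.50. Among the falls, Gadd45b gave -0.57, -0.92, -1.18 and -1.57, whereas Jun gave -0.86, -0.60, -0.08 and 0.02. Pparg stayed at -0.39, -0.42, -0.28 and -0.61, with adjusted p of 0.0507, 0.0137, 0.0728 and 0.000284 from limma, and Rgs2 at -0.71, -0.67, -0.44 and -0.73, called at all 4 times.

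**Figure D4:**
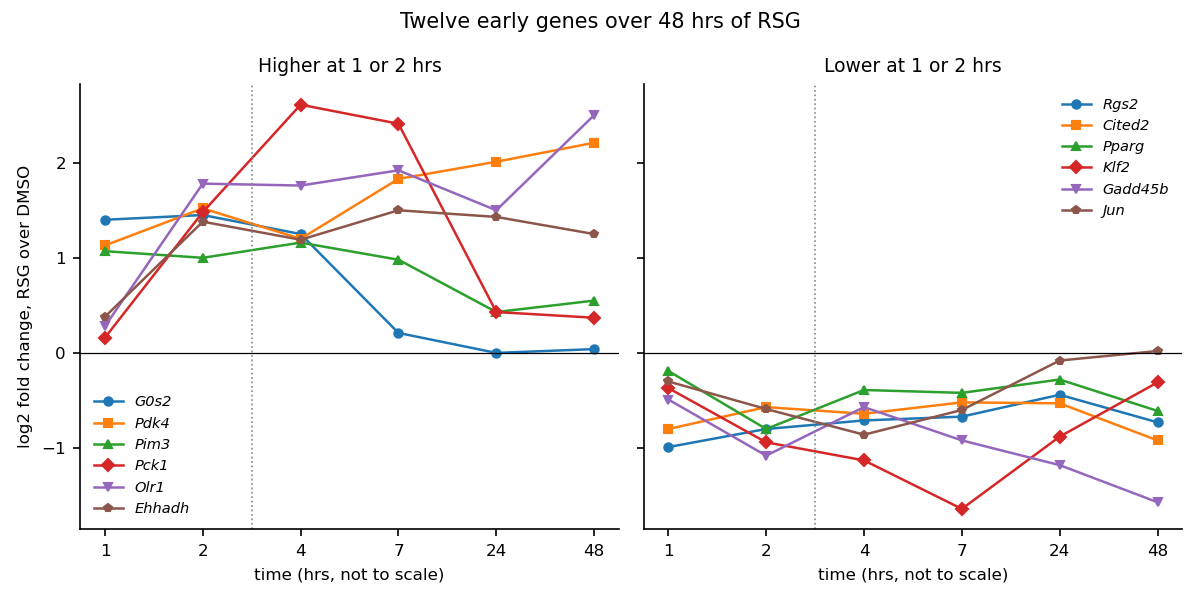
Fitted log2 fold change of RSG over DMSO at 6 times up to 48 hrs of treatment for 6 genes higher early (left) and 6 lower early (right). Points right of the dotted line come from the 24 later arrays, where G0s2 reached 0.00 at 24 hrs and Pdk4 2.21 at 48 hrs.

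In 3T3-L1 adipocytes, the other line of the series, 11 arrays covered the same hours, with 2 in the DMSO group at 2 hrs. These cells had been differentiated with 0.1 µM RSG for 2 days and 0.8 µM insulin, against 10 µM RSG for 6 days and 1 µM insulin for C3H/10T1/2 cells, so line and earlier exposure cannot be told apart. The 3T3-L1 arrays were fitted without the replicate block. Of the rises tested there, 4 of 64 were called higher at 1 hr and 5 of 64 at 2 hrs, against 0.0287% and 0.0575% of all probe sets, and of the 34 falls 3 were called lower at each time, against 0.0172% and 0.0287%. With the block 14 of 64 rises and 4 of 34 falls were called at 2 hrs. The shares above are from the fit without the block, so the counts of the 2 fits are not compared. With any 1 of the 11 arrays left out, 0 to 3 rises and 0 to 2 falls were called at 1 hr. At 2 hrs, 5 to 7 rises and 2 to 4 falls were called in 9 of these fits. Without either DMSO array of 2 hrs, which leaves 1 array in that group, assumed to vary like the other groups, 0 rises and 0 falls were called at 2 hrs. Pim3 (0.73 and 1.2), Rgs2 (-0.94 and -0.98), G0s2 (1.07 and 1.09), Cited2 (-1.16 and -1.26) and Id3 (1.04 and 1.57) were called at both times in 3T3-L1 adipocytes, as log2 fold changes at 1 hr and 2 hrs. Pdk4 (1.30) was called at 1 hr, and Pck1 (2.49), Noct (1.60) and Pparg (-0.97) were called at 2 hrs. The median log2 fold change was 0.18 and 0.43 over the rises and -0.16 and -0.36 over the falls. The difference between the effects in C3H/10T1/2 cells and in 3T3-L1 cells was called for 0 of all probe sets at 1 hr (0%), with 937 at an unadjusted p under 0.05 (5.3%), and for 1 at 2 hrs (0.00566%), with 914 (5.17%). None of the 102 early probe sets was called by limma, with 10 and 41 of them at an unadjusted p under 0.05 at 1 hr and 2 hrs. These were chosen by the same C3H/10T1/2 values, so nothing is read from that share, and no early gene is shown to respond in one line alone.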

How the data were processed

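The authors lysed the adipocytes, hybridized labeled cRNA to Affymetrix mouse 430A arrays, randomizing samples before cRNA synthesis and hybridization, and deposited MAS 5.0 intensities, which are background-corrected signals scaled to one target and not logged. Intensities were not normalized again here. Of the probe sets, 64 controls were left out, which leaves 22626, and the 132 values of 0 in the table were set to 0.1 before log2. By the annotation 20380 probe sets had 1 gene, 691 had more than 1 and 1555 had no gene, 12393 genes in all. Probe sets with a group mean of 19.9 or more, the presence level of the methods, were tested (15439).

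Log2 signals of the 12 arrays were fitted with lmFit and eBayes (intensity trend) of limma 3.58.1 in R 4.3.3, with 1 mean per group and the replicate number as a block. P values were adjusted by Benjamini-Hochberg over all tested probe sets, and an adjusted p under 0.05 is a call. Later C3H/10T1/2 arrays (with the block) and 3T3-L1 arrays (without it) were fitted separately, and the difference between lines jointly. The methods give 3 batches of cells per condition without saying that a number marks a batch. After group means were removed, arrays of the same number correlated at 0.149 to 0.381 in 18 pairs and those of different numbers at -0.244 to 0.0199 in 36, and the number was taken to pair the arrays. With 3 arrays a group, their number limits the precision. The methods' own test used log10 signals, an unadjusted p and a 1.2-fold change, and was tried as an alternative.

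The genes and lists were chosen with earlier results of these data known. Named are genes with 1 symbol: all called at 1 hr, the 20 largest rises and 15 largest falls among the called at 2 hrs and over both hours, within a list the top 3 rises and top 2 falls, and Pparg, by the called probe set with the highest mean signal. There were 19 lists by function and 7 of cell type markers, with 444 of 500 genes on the array. Alternatives were no block, the block within each time, no trend, a floor at 19.9, 1 added before log2, no filter, all 12 arrays at 19.9, all 36 arrays of the line, only the arrays of a time, median scaling, quantile normalization and each array left out. The fit was tested on simulated data. Figures were drawn with matplotlib 3.10.9 in Python 3.11.15.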

Additional observations from a re-analysis of the deposited data

Results flagged for a closer look

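Across all probe sets, 1 effect of RSG differed between the cell lines by limma's test of the difference. It was a probe set of Pde7a, a phosphodiesterase that breaks down cAMP, at 2 hrs, singled out after its values were seen. In C3H/10T1/2 adipocytes its signal was 32.5, 33.4 and 29.3 with RSG, against 18.0, 40.4 and 31.9 with DMSO, and in 3T3-L1 adipocytes 8.4, 7.8 and 6.2 with RSG, against 52.0 and 46.7 with DMSO. The log2 difference, C3H/10T1/2 minus 3T3-L1, was 2.92 ± 0.44 (SE, adjusted p = 0.0464). The RSG arrays of 3T3-L1 adipocytes were all under the presence level, so this fitted size is no bound, and the DMSO group there held 2 arrays. The other 3 Pde7a probe sets gave 0.24, -0.48 and 0.19, with adjusted p of 0.976 or more.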

How the results depend on the processing

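Named results numbered 95, and of their 2254 values under the alternatives 1818 kept their call, 436 lost it and 0 reversed. Counts at 1 hr, at 2 hrs and over both hours were 1, 34 and 27 without the replicate block, and 0, 52 and 28 without the intensity trend. The methods' test called 354 and 573 at 1 hr and 2 hrs, and after Benjamini-Hochberg adjustment 0 and 0. The difference between the hours was called for 9 probe sets in the fit of all 36 arrays and for 5 where all 12 arrays reached the presence level, against 0. With 1 array left out in turn, counts ran from 8 to 15 at 1 hr, 45 to 111 at 2 hrs, 51 to 71 over both hours and 0 to 1 for the difference. The count at 1 hr was 8 without RSG replicate 3 of 1 hr. The count at 2 hrs was 45, 60 and 62 without RSG replicates 1, 2 and 3 of 2 hrs, and 65, 54 and 63 without DMSO replicates 1, 2 and 3. Later calls without the block were 22, 22, 15 and 12 rises and 11, 15, 9 and 11 falls at 4, 7, 24 and 48 hrs. No share of all probe sets in that fit stands beside them. In 3T3-L1 adipocytes the replicate block gave 14 rises at 2 hrs, with no share of all probe sets beside this count. No filter gave 0 rises and 1 fall at 1 hr on the 3T3-L1 arrays, and quantile normalization 1 fall at 1 hr. With 1 of those arrays left out, rises ran from 0 to 3 at 1 hr and 0 to 7 at 2 hrs, and falls from 0 to 2 and 0 to 4. The difference between the lines at 2 hrs was called for 4 probe sets after quantile normalization. The causes were not tested. Dim probe sets near the presence level are the least precise.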
